A study of Bos taurus with 14 samples.

Results

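The bovine miRNA described here are bta-miR-1246, the 2 arms of miR-423 (bta-miR-423-5p and bta-miR-423-3p), bta-miR-6529a, bta-miR-339a and bta-miR-339b in small extracellular vesicles (sEVs) of cow milk. They were chosen from these same counts as a set of miRNA that vary together over the cows, although miR-423-3p followed miR-423-5p only loosely. Also, 4 of them (miR-423-5p, miR-6529a, miR-339a and miR-339b) are among those that the study called between the groups on the same animals. Their co-variation is therefore given as a description with no test, and their differences between the groups are no independent evidence. The 6 mature miRNA fill 7 of the 350 deposited miRNA/precursor pairs, out of 268 mature names. The counts of miR-339a and miR-339b at the precursor mir-339a were equal in all 14 cows, so 6 distinct sets of counts were followed, of 239 in the table. All 7 pairs passed the minimum of 10 counts over all cows.

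Milk came from 14 lactating Holstein cows with subclinical mastitis, an inflammation of the udder without visible signs. The 7 control cows ate a total mixed ration, and the 7 inulin cows received 300 g/d of inulin, a prebiotic plant fructan, in addition for 5 wk after 1 wk of adaptation. Each library held the sEV RNA of 1 cow from the milkings of the last day, and a number shared between the groups does not link animals. The table lists a mature miRNA once per precursor, so that reads fitting several precursors appear several times in a total, most of all those of let-7a-5p (3 precursors with nearly equal counts) and let-7f (2 precursors). With 1 precursor per mature miRNA, 54.3% to 77.998% of a cow's total was left. Levels are given as CPM (counts scaled to 1e+06 of all miRNA counts of a cow) or as a share of the counts.

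Total counts ranged from 4165 in control cow 2 to 415020 in control cow 5, with medians of 72277 for control and 112974 for inulin cows. Control cow 5 and inulin cow 4 stood apart, since 15.03% and 27.5% of their counts lay outside let-7, miR-1246 and miR-423-5p, against 7.12% to 10.2% in the other 12 cows. Of 8 miRNA enriched in epithelium, 7 had counts and miR-205 was at 0. Found in all 14 cows were miR-200c, miR-141 and miR-375, against 9 for miR-148a, 8 for miR-200b, 7 for miR-200a and 6 for miR-429. Of the 16664 counts of these epithelial miRNA, 11333 were of miR-200c. Their summed level was 3601 to 15546 CPM among control cows and 6019 to 10514 CPM among inulin cows. Of 7 leukocyte miRNA, 6 had counts, with summed levels of 0 to 860.2 CPM and 45.4 to 486 CPM, respectively, and miR-146a was at 0. The highest epithelial and leukocyte levels were both those of control cow 5. Among red blood cell miRNA only miR-486 was found, with 5 counts in all, and miR-451 and miR-144 were at 0.

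A miRNA is cut from the stem of a hairpin precursor, and either arm of the stem, 5p or 3p, can be kept to guide silencing of messenger RNA. Milk sEVs carry such miRNA from the mammary gland, and let-7, a family known for promoting differentiation and for repressing growth genes such as HMGA2, is the bulk of their reads here. The members map to 5 precursor hairpins, since the 2 arms of miR-423 share one and miR-339b was listed at both mir-339a and mir-339b. By RefSeq (assembly ARS-UCD2.0) the precursor mir-1246 is on chromosome 1 outside of protein-coding genes, with SUCNR1, a succinate receptor gene, as the nearest. The precursor mir-423 is on chromosome 19 within NSRP1, which encodes a splicing regulator of nuclear speckles. The precursor mir-6529a is on chromosome 1 within GSK3B, a kinase gene of Wnt and glycogen signalling, where it overlaps mir-6529b. The precursor mir-339a is on chromosome 25 within C25H7orf50, and mir-339b on chromosome 7 within MYO1F, a myosin gene active in leukocytes. In human cells, reads assigned to miR-1246 can also come from fragments of a small nuclear RNA, and human miR-423-5p is well known as a circulating miRNA in heart failure.

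The listed mature lengths were 19 nt for miR-1246, 20 nt for miR-339b, 21 nt for miR-6529a, 22 nt for miR-339a, 23 nt for miR-423-5p and 24 nt for miR-423-3p. The levels of the members differed by orders of magnitude. Over all cows, miR-1246 had 134248 counts, miR-423-5p 76417, miR-6529a 569, miR-339a at mir-339a 175, miR-339b at mir-339b 146 and miR-423-3p 48. With 1 precursor per mature miRNA, miR-423-5p ranked between 2 and 8 in every cow, and miR-1246 between 1 and 22. All 6 sets were detected in 6 cows, 3 of each group.

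The most variable of the abundant members was miR-1246. Its share of the counts ran from 0.708% in control cow 5 over a median of 7.15% to 36.4% in control cow 4, and from 0.118% in inulin cow 2 over a median of 1.77% to 18.4% in inulin cow 5. The highest share was 308-fold the lowest. The groups overlapped, with 5 of 7 inulin cows under the control median and 3 under the lowest control cow. The shares left a gap between 2.15% in inulin cow 4 and 7.15% in control cow 3, with 6 cows above it. Between-cow SD of its log2 level was 2.67, the third largest among 72 sets found in at least 10 cows.

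Shares of miR-423-5p covered a narrower range, from 1.16% in control cow 5 to 14.4% in control cow 4, and from 1.39% in inulin cow 2 to 9.06% in inulin cow 5, with medians of 8.84% and 2.93%. The highest share was 12.4-fold the lowest. In the inulin group 6 of 7 cows were below the control median, and inulin cow 5 alone was above it, whereas the lowest cow of all was a control. With 1 precursor per mature miRNA in the total, its highest share was that of control cow 3, 21.5%, and its lowest again that of control cow 5, 2.05%. The SD of its log2 level, 1.30, had rank 34 of 72.

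Counts of miR-6529a in control cows 1 to 7 were 101, 3, 80, 162, 55, 15 and 7, and in inulin cows 1 to 7 they were 44, 6, 2, 0, 79, 15 and 0. The control cows lay between 133 CPM in cow 5 and 1360 CPM in cow 1, and the inulin cows between 0 and 699 CPM in cow 5. Every inulin cow was below the control median of 720.3 CPM, and 5 of 7 were below the lowest control cow. That median is the level of control cow 2, on only 3 counts, and inulin cow 5 was just below it at 699 CPM. A count of 0 allows up to 202 CPM in inulin cow 4 and 39.9 CPM in inulin cow 7, limits that cover counting error only. The 0 of inulin cow 4 thus does not exclude a level like that of control cow 5.

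Counts of miR-339a at mir-339a in control cows 1 to 7 were 12, 1, 12, 58, 76, 0 and 0, and in inulin cows 1 to 7 they were 11, 0, 0, 0, 1, 4 and 0. The counts of miR-339b at its own precursor were equal to these in 11 cows and lower by 29 in all, and these near-identical pairs are best read as 1 measurement. Detected control cows had 162 to 327 CPM, and detected inulin cows 8.85 to 57.9 CPM, but with the cows at 0 the groups overlapped. In the 6 cows without counts the limits were between 17.04 CPM, in inulin cow 2, and 202 CPM, in inulin cow 4.

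**Figure D1:**
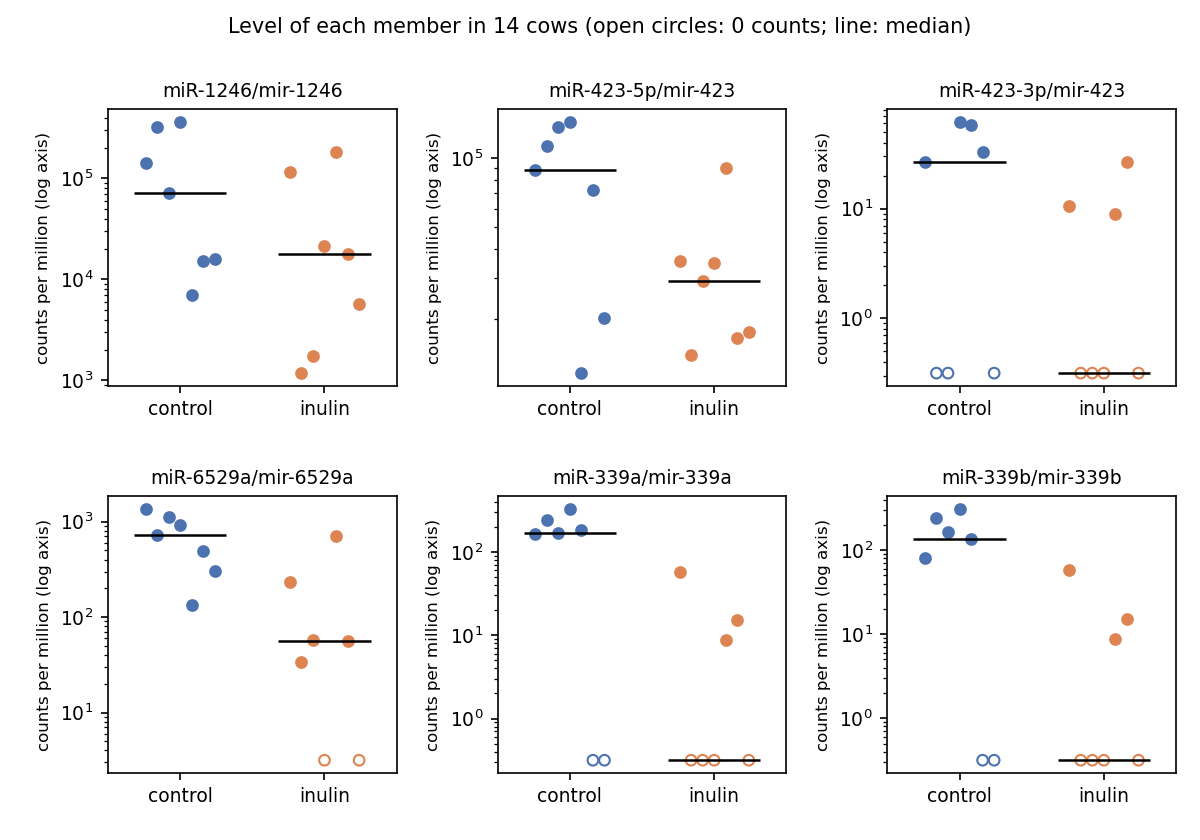
Level of each member in CPM of the total of a cow (log axis) for 7 control and 7 inulin cows, ordered by cow number from left to right in each group; lines are medians and open circles, drawn at an arbitrary height, are cows with 0 counts. The groups overlap for miR-1246, miR-423-5p and miR-6529a. For miR-6529a 5 inulin cows lie below all control cows, among them inulin cows 4 and 7 with 0 counts.

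Levels of miR-1246, miR-423-5p and miR-6529a rose and fell together over the cows, whereas miR-423-3p followed miR-423-5p (rho 0.284) and miR-6529a (rho 0.349) less closely. In log2 CPM over 14 cows, miR-1246 and miR-423-5p had a Pearson's r of 0.797 and a Spearman's rho of 0.815. For miR-423-5p and miR-6529a r was 0.794 and rho 0.793, and for miR-1246 and miR-6529a they were 0.745 and 0.710. The members were chosen for this kind of pattern, so these values are not tested. When the 2 cows at the greatest distance from the median of the first-named miRNA were left out, r was 0.721, 0.742 and 0.696, respectively. Within the groups rho was also positive, with a rho of 0.857 in both for miR-1246 and miR-423-5p (7 cows each), and of 0.75 and 0.607 for miR-423-5p and miR-6529a in the control and inulin groups. For comparison, the median rho over the 2556 combinations of the 72 sets was 0.0418, and 0.978% of them reached the rho of miR-1246 and miR-423-5p. This contrast depended on the scaling. With let-7 and miR-1246 left out of the total, the rho of miR-1246 and miR-423-5p was 0.684 (0.607 among control and 0.429 among inulin cows), the median of all combinations was 0.178, and 13.4% of them were at or above that rho. With let-7 and all members left out, that rho was 0.714, the median 0.108 and the share 3.72%. The rho of miR-423-5p and miR-6529a was reached by 1.25%, 4.30% and 0.822% of the combinations on the 3 scales, in the same order. None of these shares is a test, since the members were chosen on these same counts. The 72 sets also keep near-identical counts of the same miRNA at several precursors, such as let-7a-5p, and their combinations have a high rho by construction.

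For miR-339a at mir-339a the rho was 0.648 with miR-1246, 0.486 with miR-423-5p and 0.600 with miR-6529a, values that rest on 8 cows with counts and 6 without. Within the groups the rho with miR-6529a was 0.107 for control and 0.286 for inulin cows. The mean rho of the 6 combinations of miR-1246, miR-423-5p, miR-6529a and miR-339a was 0.675. It was 0.652 when let-7 and miR-1246 were left out of the total, and 0.602 when all cows were thinned to 4165 counts, at which miR-339a was found in a mean of 3.62 cows. All of these values share the total of a cow as the divisor.

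The proportions between members varied from cow to cow. The log2 ratio of miR-1246 to miR-423-5p, which holds no total, ran from -4.06 to 1.72, with an SD of 1.82 over the cows. More miR-1246 than miR-423-5p was counted in 6 cows, 3 of each group. By the SD of the log2 ratio to miR-423-5p, a measure chosen after seeing the data, miR-1246 had rank 36 and miR-6529a rank 9 among the other 71 sets, with an SD of 1.53 for miR-6529a. The smallest SD was that of miR-130b, 0.792.

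**Figure D2:**
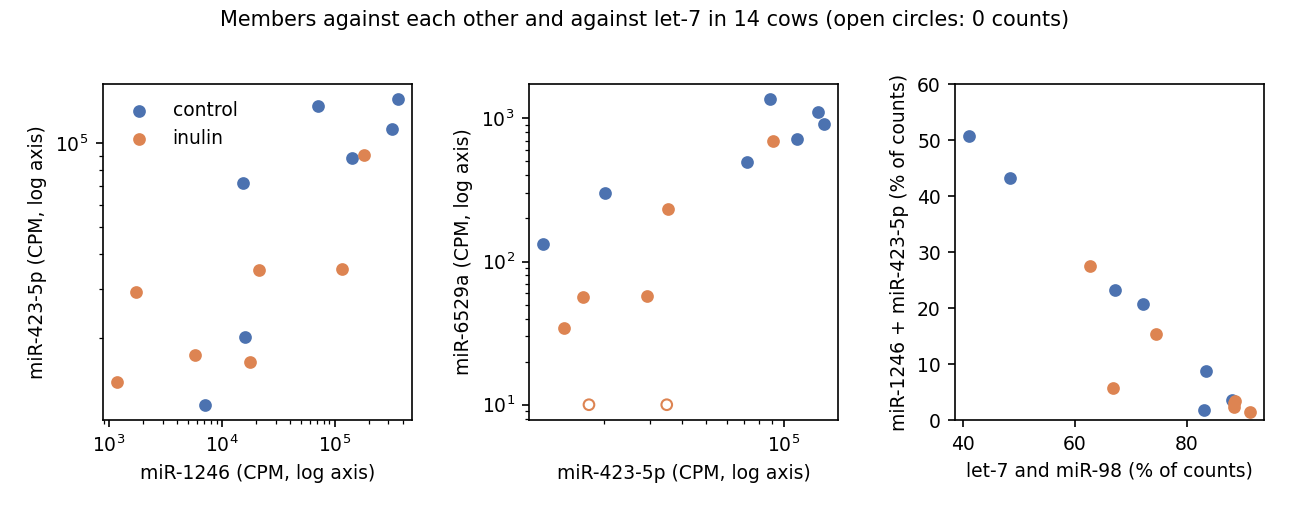
Left, miR-423-5p against miR-1246 and, middle, miR-6529a against miR-423-5p in CPM of a cow (log axes); right, the summed share of miR-1246 and miR-423-5p against the share of let-7 and miR-98 (% of counts), with 1 point per cow and open circles, drawn at an arbitrary height, for 0 counts. The points rise together in the left and middle panels and fall from 50.8% to 1.51% in the right one, where inulin cow 4 lies below the other cows with a like let-7 share.

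Where miR-1246 and miR-423-5p took a larger share, let-7 (with miR-98) took a smaller one. The let-7 share was 41.1% to 88.1% among control cows (median 72.1%) and 62.6% to 91.4% among inulin cows (median 88.4%). The summed share of miR-1246 and miR-423-5p ran from 1.87% to 50.8% among control cows (median 20.7%) and from 1.51% to 27.5% among inulin cows (median 3.43%). In 12 of 14 cows the 3 together made up between 89.8% and 92.9% of the counts. The exceptions were control cow 5 with 85.0% and inulin cow 4 with 72.5%. These shares count let-7a-5p at 3 precursors and let-7f at 2. With 1 precursor per mature miRNA, the let-7 share was 27.9% to 82.3% among control cows (median 58.6%) and 50.6% to 87.6% among inulin cows (median 83.4%). The summed share of miR-1246 and miR-423-5p was then 3.31% to 65.1% (median 32.9%) and 2.78% to 40.1% (median 6.11%), respectively. On that basis let-7, miR-1246 and miR-423-5p together made up 88.5% to 93.04% in 12 cows, 79.2% in control cow 5 and 68.2% in inulin cow 4, and the rho of the let-7 share with the summed share was -0.943.

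Over 14 cows the let-7 share had a Pearson's r of -0.945 and a rho of -0.868 with the summed share of miR-1246 and miR-423-5p, and r was -0.835 after the cows with the 2 let-7 shares farthest from the median were left out. For single members the rho with the let-7 share was -0.886 for miR-1246, -0.802 for miR-423-5p, -0.62 for miR-6529a, -0.629 for miR-339a at mir-339a and -0.251 for miR-423-3p. Shares of 1 total must trade off when they are this large, so these values describe the make-up of the libraries. Whether the number of let-7 molecules changed cannot be told from shares, nor can fewer vesicles be told from less RNA in each.

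**Figure D3:**
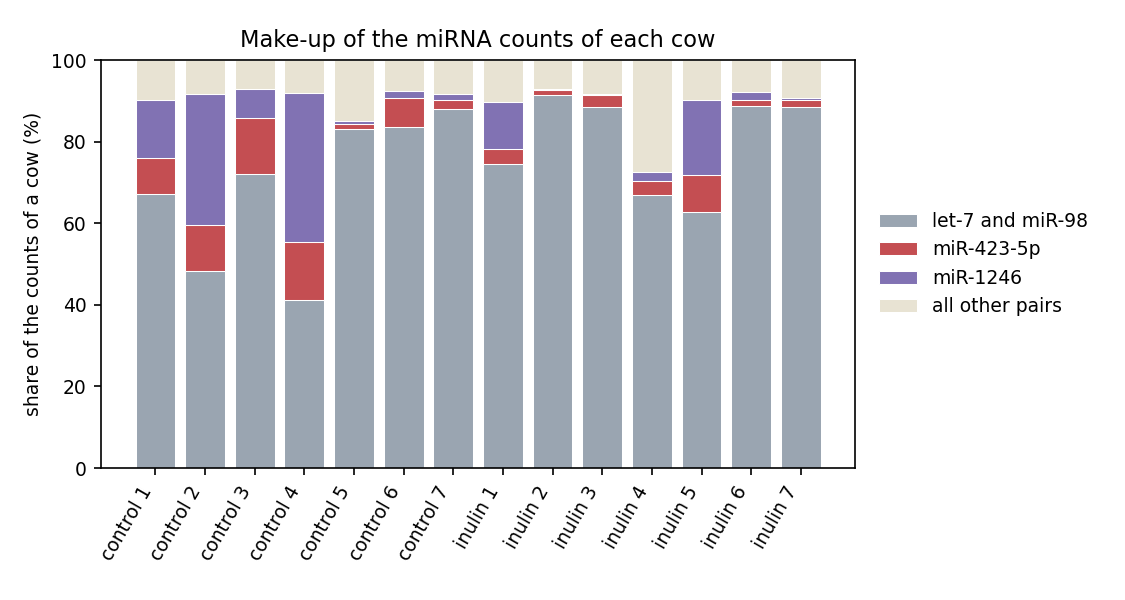
Share of the miRNA counts of each cow (%, bars stacked to 100) held by let-7 with miR-98, miR-423-5p, miR-1246 and all other pairs, for 7 control and 7 inulin cows. The let-7 part runs from 41.1% in control cow 4 to 91.4% in inulin cow 2, and the part of all other pairs is largest in inulin cow 4, at 27.5%.

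The hairpin of miR-423 was represented almost wholly by its 5p arm. With all cows summed there were 76417 counts of miR-423-5p and 48 of miR-423-3p, 1592 to 1, so that the 3p arm made up 0.0628% of miR-423. It was detected in 7 cows, 4 control and 3 inulin. Where it was detected, its share ran from 0.00976% in inulin cow 5 (95% Wilson interval 0.00172 to 0.0553) to 0.497% in control cow 5 (interval 0.334 to 0.738). Control cow 5 held 24 of the 38 control counts of miR-423-3p but 9.66% of the control counts of miR-423-5p. Its interval lay above those of control cows 1, 3, 4 and 6 and of all inulin cows except inulin cow 3, where it overlapped with an upper bound of 0.374, and inulin cow 4, with 0.735. For control cows 2 and 7, with 0 counts of the 3p arm, the upper bounds of 0.812 and 0.816 also overlapped with it.

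Intervals cover counting error of reads only, not the spread between animals, and no test was made between single cows. Inulin cow 6 had the second highest, 0.159% (interval 0.0772 to 0.329), and control cow 3 had 9820 counts of the 5p arm and 0 of the 3p arm (Wilson upper bound 0.0391). In log2 of the ratio of the 5p to the 3p arm, with 0.5 counts added to each, control cows had 10.7 ± 2.01 (SD, n = 7) and inulin cows 11.1 ± 1.22 (SD, n = 7). The difference of 0.48 was within the spread of the cows (two-sided exact permutation p = 0.601), and without control cow 5 it was -0.03 (exact permutation p = 0.979). Where the 3p arm has 0 counts the ratio is set by the depth of the 5p arm and the added 0.5 counts. The rho between the levels of the 2 arms was 0.284 over 14 cows, a value that rests on 7 cows without the 3p arm.

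**Figure D4:**
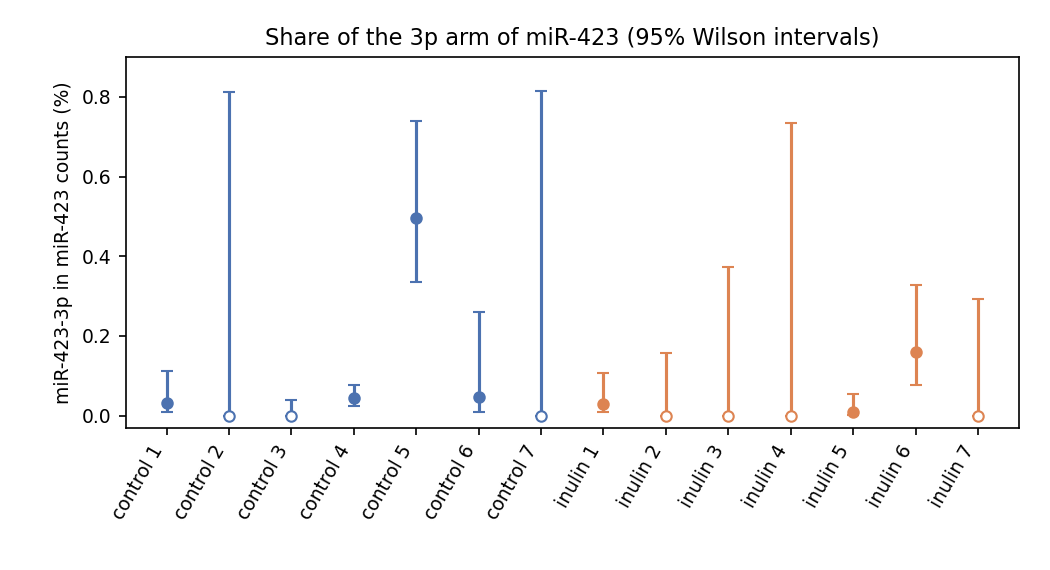
Share of miR-423-3p in all miR-423 counts of a cow (%) with 95% Wilson intervals, for control (blue) and inulin (orange) cows; open circles are cows with 0 counts of the 3p arm. Control cow 5, at 0.497%, is the highest, and the intervals of cows with few miR-423 counts reach above 0.8.

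Between the groups, all 6 sets had a lower fitted level with inulin, and so did 70.0% of the 210 tested pairs. The rule of the study asks for a log2 fold change beyond 1 in either direction and a P below 0.05 without adjustment. By it edgeR called 4 of the 6 sets, all lower with inulin, against 6.19% of the 210 pairs called lower and 9.05% called either way (6.21% lower with identical sets taken once). DESeq2 also called 4 sets, against 2.86% of the pairs called lower. With both tools the 4 included miR-339a and miR-339b, which are nearly the same measurement. The members include pairs picked by that same contrast, so nothing is read from these counts. None passed after Benjamini-Hochberg adjustment over all pairs (0 of 210 under 0.05 from edgeR and 0 from DESeq2, against 19 and 10 at an unadjusted p under 0.05). For miR-339a at mir-339a the fitted log2 fold change was -3.39 ± 1.17 (standard error) with an adjusted p of 0.274, and for miR-6529a it was -2.01 ± 0.955 with 0.522 (edgeR, Benjamini-Hochberg). For miR-423-5p edgeR gave -1.29 ± 0.543 with an adjusted p of 0.439, and for miR-339b at mir-339b -3.17 ± 1.18 with 0.313. The sets not called were miR-1246, with -1.46 ± 0.989, and miR-423-3p, with -1.77 ± 1.16, both with an adjusted p of 0.898 from edgeR.

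The size of these differences depended on what each cow was scaled to. The median log2 fold change was -0.40 over all pairs with TMM normalization and 0.00 when the total without let-7 and miR-1246 was used as library size. Relative to that median, the change of miR-423-5p was -0.89 with TMM and -0.95 with the smaller total, that of miR-6529a was -1.60 and -1.95, and that of miR-339a at mir-339a was -2.99 and -2.79. With the smaller total miR-423-5p was not called (log2 fold change -0.95, adjusted p = 0.647 from edgeR) and 3 of 6 sets were. The number of sets called fell to 2 without control cow 2, 3 or 4 or inulin cow 2 or 7, and was 5 without inulin cow 5. Each time, the 2 left were miR-339a at mir-339a and miR-339b at mir-339b, which are nearly the same measurement, while miR-423-5p and miR-6529a were not called.

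**Figure D5:**
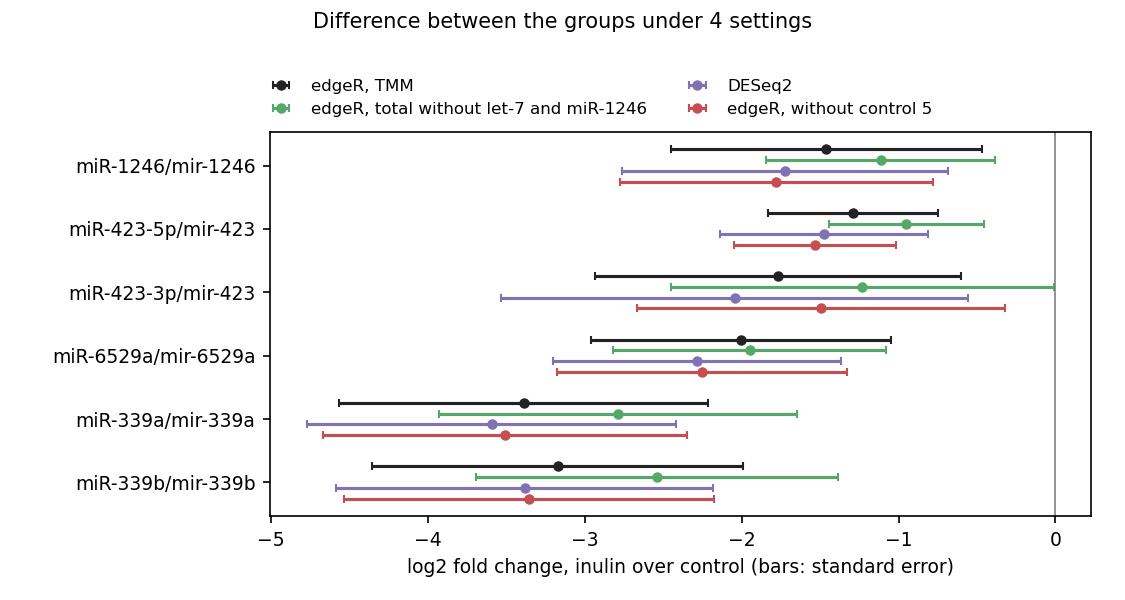
Fitted log2 fold change of the 6 sets, inulin over control, with standard errors, from edgeR with TMM, edgeR with the total without let-7 and miR-1246, DESeq2, and edgeR without control cow 5. All values are below 0, from -0.95 for miR-423-5p with the smaller total to -3.59 for miR-339a with DESeq2.

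Per cow and scaled to the total without let-7 and miR-1246, miR-423-5p alone made up 7.15% to 65.6% of the remaining counts of control cows and 11.3% to 47.8% of those of inulin cows. Every inulin cow lay below the control median of 48.3%, but the lowest cow was again control cow 5. In log2 level the difference of -0.80 was within the spread between cows (two-sided exact permutation p = 0.142, adjusted p = 0.863 over 210 pairs). Without control cow 5 it was -1.19 (exact permutation p = 0.0117).

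On the same scale miR-6529a had a difference of -2.82 between inulin and control (exact permutation p = 0.00641, adjusted p = 0.294 over 210 pairs). Below the control median were 7 of 7 inulin cows in this log2 level, and 6 of 7 in the plain share without added counts. For miR-339a at mir-339a the difference was -2.64 (exact permutation p = 0.00583, adjusted p = 0.294), with 7 of 7 inulin cows below the control median. Of all 210 pairs 5.24% were lower with inulin at an exact p under 0.05 and 6.19% differed either way. With the whole total these shares were 6.67% and 7.62%. No pair of the 210 passed after adjustment. For miR-1246 and miR-423-3p the differences were -1.72 and -1.28 (exact permutation p = 0.178 and 0.0653). Levels of cows with 0 counts enter with 0.5 counts added and thus depend on depth.

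The levels of the members did not show a relation to depth that passed the test. Pearson's r between the log10 total count and the log2 level ranged from -0.345 for miR-423-5p (permutation p = 0.228) to -0.112 for miR-339a at mir-339a (permutation p = 0.704), and Spearman's rho from -0.345 (permutation p = 0.225) to -0.0462 (permutation p = 0.881). Adjusted over the 6 relations, all p-values of r were 0.704 and all of rho 0.881 (permutation tests, 14 cows). Leaving out the 2 cows of most extreme depth, r was between -0.243 and 0.251.

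The pairs outside the set whose pattern was most like that of miR-423-5p and miR-1246, by the mean of both rho over 14 cows, were miR-221 (0.831), miR-2904 (0.69), miR-130b (0.677), miR-760-3p (0.626) and miR-2284x (0.593). The first of these, miR-221, is known for repressing the cell cycle inhibitor CDKN1B and had 70 counts in 10 cows. The mean rho of the member miR-6529a was 0.752. Levels of miR-2904 ran from 0 to 4834 CPM among control cows and from 0 to 6102 CPM among inulin cows. Without let-7 and miR-1246 in the total, the mean rho of miR-221 was 0.686, that of miR-2284x 0.343 and that of miR-6529a 0.776, so that miR-6529a then came before miR-221. Without let-7 and all members, miR-221 (0.818) again came before miR-6529a (0.809), and miR-2284x had 0.730. The least alike were miR-30a-5p, with a mean rho of -0.837, and let-7a-5p, with -0.835 at each of its 3 precursors. With let-7 and all members left out of the total, miR-30a-5p had -0.626 but let-7a-5p only -0.182. The summed level of the epithelial miRNA had a rho of -0.613 with miR-423-5p and that of the leukocyte miRNA 0.231, in shares of the same total, and their part in the pattern was not tested.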

How the data were processed

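The authors kept trimmed reads of 15 to 41 nt, checked quality with Fastx_toolkit 0.0.13, annotated other RNA with Rfam 10.1 and counted miRNA of miRBase 21 with miRDeep2. The deposited counts are not normalized. The deposited rpm, which the authors scaled to each cow's total, the deposited sum over the cows and another unit, the length in nt that the authors list, are in the same table, and results start from the counts. The labels name the build ARS-UCD1.2, so no positions of ARS-UCD2.0 are given.

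Members and lists were chosen with earlier results of these data known. The 210 pairs that reached 10 counts summed over cows entered edgeR 4.0.16 (quasi-likelihood, TMM, R 4.3.3), and with DESeq2 1.42.0, the tool of the study, as an alternative. Log2 levels have a prior of 0.5 counts. Single values were compared by exact permutation over 3432 groupings (smallest p 0.000583), and relations to depth with 100000 permutations. Intervals are 95% Wilson intervals. A member with any count in a cow was taken as detected, and the CPM limits for cows without counts were set at 3 counts. Named pairs were the members, the 5 most and 3 least alike by mean rho, and marker miRNA, while the planned naming of miRNA with a shared seed was not done because mature sequences were not used here. The fits were tried on simulated counts, with a pass mark only at the lower of the noise levels used. The exact permutation test and the correlation were checked on simple made-up values. The p-values describe these 14 animals.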

Additional observations from a re-analysis of the deposited data

Results flagged for a closer look

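The highest and lowest cow of both groups were compared with the nearest cow, 18 groups of 7 values in all. The rule picks about 1 in 20 of independent groups of normally distributed values. Most values here are shares, some from cows without counts, and miR-339a and miR-339b repeat each other. No excess can therefore be read from the number found. A cow far from the others was found in 7. The share of miR-423-5p in inulin cow 5 was 9.06% (next cow 3.55%), and that of miR-6529a in the same cow was 0.0699% (next cow 0.0232%). Inulin cow 1 had 0.00579% of miR-339a at mir-339a and the same share of miR-339b at mir-339b, 0.00579%, on equal counts (next cow 0.00151%). The share of miR-423-3p in inulin cow 6 was 0.00264% (next cow 0.00105%), on 7 counts. Outside let-7, miR-1246 and miR-423-5p lay 15.03% of the counts of control cow 5 (next cow 9.71%) and 27.5% of those of inulin cow 4 (next cow 10.2%).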

How the results depend on the processing

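The number of sets called (4) ranged from 2 to 5 with each cow left out. Where it was 2, the sets were the near-identical ones of miR-339a and miR-339b. The number was also 2 with the filterByExpr function of edgeR, which tested 62 pairs. That filter removed miR-339a, miR-339b and miR-423-3p before the test, while miR-423-5p and miR-6529a stayed called. Over all pairs, 19 calls became 75 with no filter, 9 with DESeq2, 3 with filterByExpr and 7 with a replicate block. Of 129 alternative log2 fold changes of the members, none was above 0 (highest -0.935), the call was the same in 111, was lost in 16 (10 of miR-6529a and 6 of miR-423-5p) and was gained in 2 of miR-1246. The arm ratio difference ranged from -0.0259 (without control cow 5, where it changed sign) to 1.08 with each cow left out. On the scale without let-7 and miR-1246, the range with each cow left out was -1.19 to -0.65 for miR-423-5p, past the test only without control cow 5, and -1.74 to -1.04 for miR-423-3p, past the test without control cow 3 or inulin cow 6. The difference of miR-423-3p, which had 48 counts in all, was -1.62 with the whole total (exact permutation p = 0.0373, adjusted p = 0.602). It was -1.84 with let-7 and all members left out (exact permutation p = 0.0117, not adjusted), and the cause was not tested. With a prior of 2 counts, on the scale without let-7 and miR-1246, it was -0.99 (exact permutation p = 0.115). Past the test here means an exact permutation p under 0.05 without adjustment. Co-variation and the trade-off with let-7 moved by less than their jackknife error in all alternatives, except the rho of miR-1246 and miR-423-5p without let-7 and miR-1246 in the total, 0.684.

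The cow numbers do not pair animals. Deviations of same-numbered cows had r above 0.1 in 2 of 7 pairs, and 0 control cows were most like their own number. With the number as a replicate block, 5 sets were called, and miR-1246 had a log2 fold change of -2.03 (adjusted p = 0.00171 from edgeR). Without the block its adjusted p from edgeR was 0.898. The block follows a number that links no animals, so nothing is read from the blocked fit. The blocked arm ratio difference was 0.48 (exact sign-flip permutation p = 0.656).

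Counts were lowest for miR-423-3p, miR-339a and miR-339b, with 0 counts in 6 or 7 cows, and the part of depth in this was not tested.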
